A study of Homo sapiens with 3 samples.

Results

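VDR peaks at 2 microRNA host loci were examined in THP-1 cells: the locus of MIR142 and BZRAP1 on chromosome 17, from 56.35 to 56.45 Mb, and the locus of MIRLET7BHG with MIRLET7B on chromosome 22, from 46.40 to 46.56 Mb, both on hg19. Every deposited peak overlapping either window was taken, which gave 66 of the 2989 peaks in the series: 18 at the MIR142 locus and 48 at the MIRLET7B locus. Of these 66 peaks, 36 came from unstimulated cells (of 1169 in that list) and 30 from calcitriol-treated cells (of 1820). The loci were chosen by the number, width and strings of their peaks in these same lists, so those values are given as a description, with no test.

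THP-1 is an established human monocytic leukaemia line. The peaks come from chromatin immunoprecipitation of the vitamin D receptor (VDR) followed by sequencing, with 1 library of cells left unstimulated and 1 library of cells treated for 40 min with 10 nM calcitriol (1α,25(OH)2D3), the hormonally active form of vitamin D. Both cultures had spent the preceding night without phenol red and with serum stripped by charcoal, which lowers its steroid content. Each library pooled 5 immunoprecipitations, so neither list carries replicate error, and an IgG control from pooled cells was not analysed here. The lists give only the position of each peak, so peak height and sequencing depth are unknown.

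As a nuclear receptor, VDR occupies DNA mostly together with a retinoid X receptor and changes the transcription of nearby genes when it is bound by calcitriol. MicroRNAs are cut from hairpins in longer host transcripts and repress messenger RNAs that pair with their seed, bases 2 to 8 of the mature strand. MIR142 is transcribed almost only in blood cells and is abundant in the myeloid lineage. BZRAP1 encodes a protein that binds the mitochondrial translocator protein. MIRLET7BHG is a long non-coding RNA that carries let-7 hairpins, and let-7 microRNAs are known to restrain growth genes in differentiated cells.

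The mature microRNAs of the genes for which the loci are named, together with those of MIRLET7A3 from the same host region, are shown because they are the products encoded there. Sequences are from RefSeq (GRCh38.p14), 5′ to 3′, with the seed in capitals:
miR-142-5p: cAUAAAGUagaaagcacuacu
miR-142-3p: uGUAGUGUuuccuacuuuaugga
let-7a-5p: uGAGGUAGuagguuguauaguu
let-7b-5p: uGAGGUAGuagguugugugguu
let-7a-3p: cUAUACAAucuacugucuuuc
let-7b-3p: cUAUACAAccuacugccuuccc
The arms of miR-142 have different seeds. The seed of miR-142-3p was found in no other of the 2370 mature human microRNAs in the table, and that of miR-142-5p in 2 of them, the other being miR-5590-3p. MIRLET7A3 and MIRLET7B encode 5p strands with the same seed, GAGGUAG. Counting from the 5′ end of let-7a-5p, let-7b-5p differs from it by A17G and A19G, both outside the seed. All 12 let-7 family genes looked up (11 MIRLET7 genes and MIR98) encode a 5p strand with this seed, and 9 different 5p sequences occur among them. The 3p strands of let-7a and let-7b also share a seed, UAUACAA.

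The 4 named genes were all matched in the RefSeq gene table: MIR142 (gene ID 406934), BZRAP1 under its present symbol TSPOAP1 (9256), MIRLET7BHG (400931) and MIRLET7B (406884). The order of genes in that table places TSPOAP1, its antisense transcript TSPOAP1-AS1, MIR142HG, MIR142 and MIR4736 between MPO and SUPT4H1. MPO encodes myeloperoxidase, a granule enzyme of neutrophils and monocytes, and SUPT4H1 a subunit of a transcription elongation factor. On chromosome 22 the table lists MIR3619, MIRLET7A3, MIR4763 and MIRLET7B after the entry for MIRLET7BHG, and PPARA is the next protein-coding gene. PPARA is a nuclear receptor for fatty acids that, like VDR, pairs with retinoid X receptors. The table is of another build than the peaks, so no peak was assigned to a gene, an exon or a promoter.

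A string is a run of neighbouring peaks of 1 list separated by exactly 10 bp. Nearly all peak edges at these loci lie on a grid of this spacing. A site is a string joined into 1 interval, or a peak that stands alone. A domain is the union of overlapping sites of both lists, and a peak is shared when it overlaps a peak of the other list by at least 1 bp. Positions are printed as deposited, and width is end minus start.

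At the MIR142 locus, in the lists as deposited, VDR occupied the same pair of broad domains before and after calcitriol. These held nearly all of the length covered by peaks. Peaks covered 17.8 kb in unstimulated cells and 18.6 kb after calcitriol, and 16.2 kb of this was the same sequence in both lists. That is 91.1% of the unstimulated and 87.1% of the calcitriol length, where the rest of the series had 52.3% and 31.2%. The widest domains found in a single list measured 3820 bp (unstimulated only) and 4059 bp (calcitriol only) over the whole series. Broader domains elsewhere were thus in both lists too, and such sharing is not particular to this locus. The lists held 10 unstimulated and 8 calcitriol peaks here, or 3 and 4 sites.

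**Figure D1:**
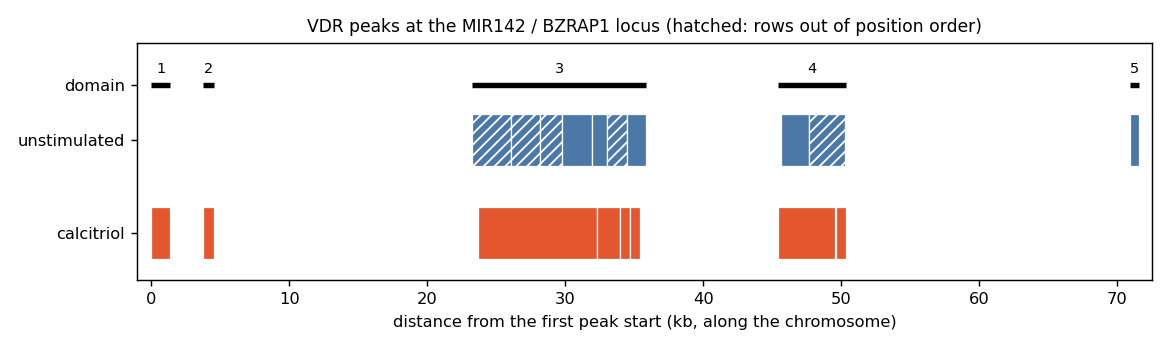
VDR peaks at the MIR142 and BZRAP1 locus, drawn to scale in kb from the first peak start, with 1 row per list, domains 1 to 5 as black bars and hatching for peaks in rows that break the position order of the unstimulated list. White lines between boxes mark 10 bp gaps and are wider than scale. Domains 3 and 4 are filled in both rows, while domains 1 and 2 have calcitriol peaks only and domain 5 an unstimulated peak only.

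The wider domain ran from 56381801 to 56394431, 12630 bp in all. In unstimulated cells it was a string of 7 peaks, in order 2830, 2080, 1560, 2190, 1110, 1430 and 1370 bp wide. After calcitriol it was a string of 4 peaks of 8600, 1670, 660 and 730 bp, from 56382271 to 56393961. The calcitriol string thus lay inside the unstimulated one, with each outer edge drawn in by 470 bp. Of the unstimulated length 92.3% was also covered after calcitriol, and of the calcitriol length 99.5% was covered before.

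In the lists as deposited, the shared domains of this locus differed mainly in where the peaks were divided. None of the 7 gaps inside the unstimulated strings of the locus lay within 100 bp of a gap of the calcitriol strings. The median distance to the nearest was 1930 bp, and 440 bp when measured from the calcitriol gaps. Each of the 7 gaps was bridged by a calcitriol peak, and each of the 4 calcitriol gaps by an unstimulated peak. This bridging was fixed once the gaps did not coincide, because each list is an unbroken string over each domain. Most of the unstimulated gaps lay inside the calcitriol peaks of 8600 and 4130 bp, which hold no gap. In the wider domain the number of peaks thus differed between the lists while the covered stretch was almost the same.

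The second domain of the locus began about 10 kb further along, with a distance of 9770 bp between sites in the unstimulated list and 10050 bp in the calcitriol list. It spanned 4870 bp, from 56404011 to 56408881, and held a pair of peaks in each list. These were 2010 and 2630 bp wide before and 4130 and 730 bp wide after calcitriol. Peaks covered 4640 bp in unstimulated and 4860 bp in calcitriol-treated cells, and 4630 bp of this was common. The start lay 190 bp further out after calcitriol and the end 30 bp further out.

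Only 3 peaks of the locus were found in a single state, and all stood alone, outside any string. After calcitriol there were peaks at 56358561 to 56359930 (1369 bp) and 56362331 to 56363081 (750 bp), which had no unstimulated counterpart. In unstimulated cells a peak of 610 bp lay at 56429501 to 56430111, with none after calcitriol. These widths exceeded 44.4%, 5.93% and 2.91% of the peaks in their own lists. By list, 1 of 10 unstimulated peaks was unshared (37.4% of that whole list) and 2 of 8 calcitriol peaks (60.6% of that whole list).

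The unstimulated string of 7 rested partly on rows that stand out of order in the deposited list. That list is sorted by position apart from 170 peaks that come at the close of their chromosome's rows, and 5 of the 10 unstimulated peaks of this locus are among them. They are the peaks of 2830, 2080, 1560 and 1430 bp in the wider domain and the peak of 2630 bp in the second. Without them unstimulated peaks covered 7290 bp at the locus in place of 17820 bp, the widest unstimulated site was 3310 bp, and the calcitriol list covered 2.5 times as much of the wider domain and 2.42 times as much of the second as the unstimulated list did. With them these ratios were 0.928 and 1.05. The near equality of both states at MIR142 thus holds for the list as deposited.

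All 5 out-of-order peaks of the MIR142 locus and all 4 at the MIRLET7B locus adjoined another peak at 10 bp and were shared with the calcitriol list. Among the other 161 out-of-order peaks of the series, 34.8% were in strings and 25.5% were shared. This contrast says little about the rows, because the loci were chosen with their strings known. At MIR142, calcitriol peaks of 8600 and 4130 bp also span most of both shared domains, so nearly any peak there would be shared. Of the 10530 bp in the out-of-order peaks of the MIR142 locus, 95.3% was covered by calcitriol peaks. Of the 7290 bp in its remaining unstimulated peaks, which include the unshared peak of 610 bp, 84.9% was covered. At the MIRLET7B locus the order was the opposite, with 67.8% of 3040 bp in out-of-order peaks and 73.9% of 29499 bp in the others. No source used here says why these rows stand out of order, and their part in the results was not tested beyond leaving them out.

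At the MIRLET7B locus every domain was bound in both states, but the states differed in how much of each domain was covered. The lists held 26 unstimulated and 22 calcitriol peaks. They formed 13 and 8 sites and covered 32.5 and 30.9 kb. Of this, 23.9 kb was common, 73.3% of the unstimulated and 77.3% of the calcitriol length. All 22 calcitriol peaks were shared, none being calcitriol-only (60.6% of that whole list), and 3 of 26 unstimulated peaks were unshared (37.4% of that whole list).

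**Figure D2:**
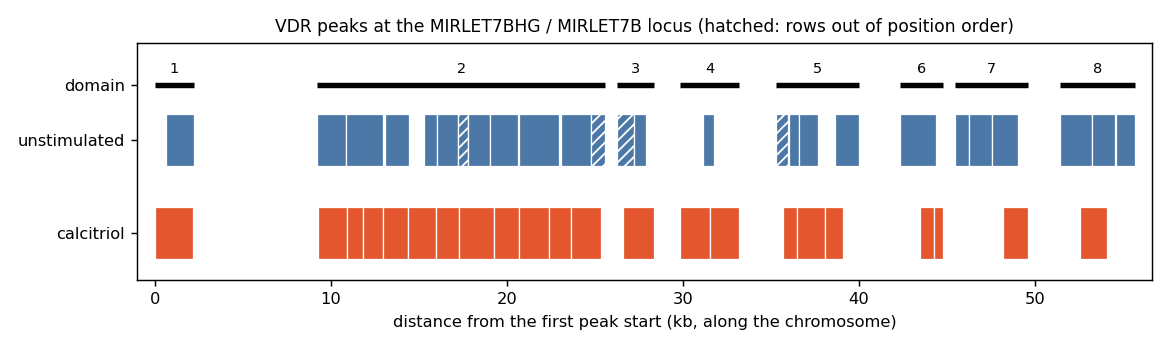
VDR peaks at the MIRLET7BHG and MIRLET7B locus, drawn to scale in kb from the first peak start, with 1 row per list, domains 1 to 8 as black bars and hatching for peaks in rows that break the position order of the unstimulated list. White lines between boxes mark gaps, those of 10 bp being wider than scale. Domain 2 is one unbroken run after calcitriol and is interrupted before it, and in domains 7 and 8 the unstimulated row is the fuller one.

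The broadest domain of the series lay here, at 46465461 to 46481791 on chromosome 22 (16330 bp, rank 1 of 1984 domains). The wider domain at MIR142 ranked 2. After calcitriol this stretch of the MIRLET7B locus was a single string of 11 peaks from 46465471 to 46481571, 16100 bp long. Its peaks were 890 to 1950 bp wide, so the length came from their number and not from any very wide peak.

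In unstimulated cells the same stretch also held 11 peaks, but in 5 sites. The sites were 3739, 1340, 5340, 2260 and 2510 bp wide, and the gaps between them measured 111, 890, 50 and 90 bp. All 4 gaps were covered by calcitriol peaks. The covered length was 15129 bp before and 16000 bp after calcitriol, a ratio of 1.06, and 14799 bp were common. The start of the domain differed by 10 bp between lists and its end by 220 bp.

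Domain 1, which precedes it on the chromosome, was a lone peak in each list. The unstimulated peak was 1580 bp wide (46456851 to 46458431) and the calcitriol peak 2170 bp (46456231 to 46458401). The ends were 30 bp apart and the starts 620 bp, with the calcitriol peak the longer. Domain 3, at 46482511 to 46484601, was covered over 1630 bp before and 1790 bp after calcitriol, with 1330 bp in common.

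Domain 4 was the place at these loci where the calcitriol list was longer by the largest ratio. A single unstimulated peak of 610 bp, wider than only 2.91% of the peaks in its list, lay at 46487371 to 46487981. After calcitriol a pair of adjoining peaks of 1670 and 1650 bp ran from 46486091 to 46489421. The covered length was 3320 bp against 610 bp, a ratio of 5.44. Of the 565 domains found in both lists across the series, 2 had a ratio this high or higher, this one included, and the median ratio was 1.1 (quartiles 0.858 and 1.48).

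In the lists as deposited the last 4 domains ran the other way, each being covered less after calcitriol. Domain 5 (46491491 to 46496241) was covered over 3730 bp before and 3350 bp after, a ratio of 0.898. Domain 6 (46498551 to 46501011) had a peak of 2060 bp before and peaks of 780 and 530 bp after, a ratio of 0.636. The covered stretches of domain 6 overlapped over 910 bp, 44.2% of the unstimulated length.

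Domains 7 and 8 showed the lowest ratios at these loci. Domain 7 (46501671 to 46505831) was a string of 800, 1300 and 1460 bp in unstimulated cells. After calcitriol it held 1 peak of 1390 bp, at 46504441 to 46505831, which overlapped the third peak of the string and reached 580 bp beyond it. Its covered length was 3560 bp before and 1390 bp after, a ratio of 0.39, and 810 bp were common.

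Domain 8 (46507651 to 46511911) was a string of 1810, 1340 and 1090 bp in unstimulated cells. The calcitriol list had 1 peak of 1530 bp inside it, at 46508811 to 46510341. The ratio was 0.361. Among the 565 domains found in both lists, 11 had a ratio at or below that of domain 7 and 7 at or below that of domain 8, these domains included. The 3 unshared unstimulated peaks of the locus belonged to these strings, as the 800 and 1300 bp peaks of domain 7 and the 1090 bp peak of domain 8.

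**Figure D3:**
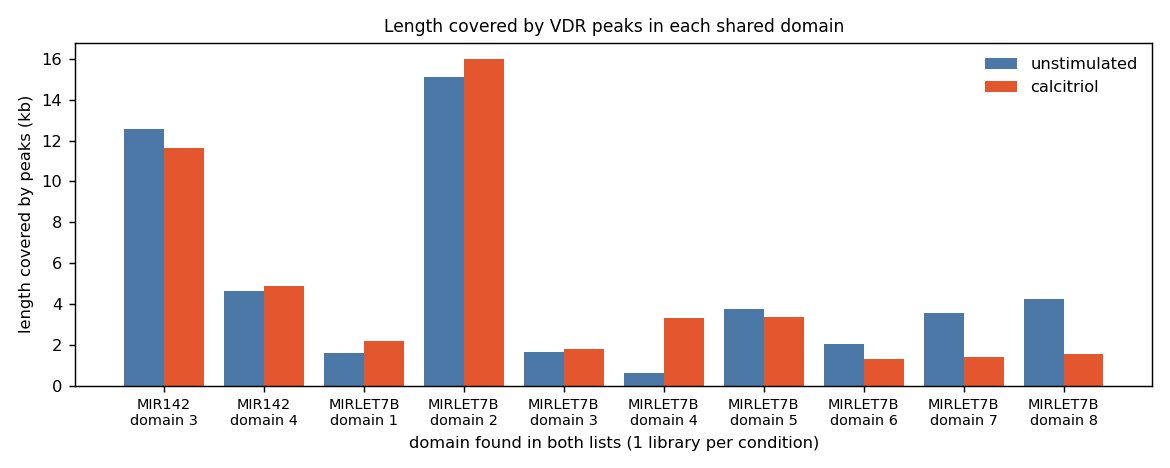
Length covered by VDR peaks, in kb, in each of the 10 domains found in both lists, with a pair of bars per domain (unstimulated and calcitriol, 1 library each, so without error bars). The bars are nearly level at domains 3 and 4 of the MIR142 locus and domain 2 of the MIRLET7B locus, the calcitriol bar is 5.44 times the other at MIRLET7B domain 4, and the unstimulated bar is the taller one at MIRLET7B domains 5 to 8.

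The sum of covered length at the MIRLET7B locus was thus similar in both lists while its distribution along the chromosome was not. Over the first 4 domains it was 18949 bp in unstimulated and 23280 bp in calcitriol-treated cells, a ratio of 1.23, with 15 peaks in each list. Over the last 4 it was 13590 and 7580 bp, a ratio of 0.558, with 11 and 7 peaks. This division was made after the values were seen. The out-of-order rows, 4 of the 26 unstimulated peaks, bore on some of the domains. The sums without these rows are not given here. Without them the ratios of domains 4, 6, 7 and 8 were the same. That of domain 2 was 1.16 in place of 1.06 and that of domain 3 was 2.56 in place of 1.1. The ratio of domain 5 was 1.12 in place of 0.898. The direction at domain 5 thus depended on 1 out-of-order peak of 730 bp.

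The proportion of the lists was set beside that of the rest of the series. The rest of the calcitriol list had 1.58 times as many peaks as the rest of the unstimulated list, and the ratio was 0.8 at the MIR142 locus (8 against 10) and 0.846 at the MIRLET7B locus (22 against 26). With strings joined the ratio at MIR142 was 1.33 (4 against 3 sites), that at MIRLET7B 0.615 (8 against 13 sites) and that of the rest 1.66. The ratio at MIRLET7B depends on the joining limit of 10 bp. Some unstimulated sites there lay 50, 90, 111, 720, 890 and 1000 bp apart, while the closest calcitriol sites lay 1240 bp apart. Gaps over 1000 bp numbered 6 in the unstimulated and 7 in the calcitriol list at MIRLET7B, so a wider limit can reverse the direction of this ratio. Site ratios at wider limits are not given here. The counts at the loci are small, and no test of their difference from the rest was made. Without the out-of-order rows the unstimulated list held 5 peaks at MIR142 and 22 at MIRLET7B, against 8 and 22 after calcitriol. The covered length of the calcitriol list was 1.05 times that of the unstimulated list at MIR142 and 0.948 times at MIRLET7B, and 1.68 times over the rest. Without the out-of-order rows the unstimulated list covered 7290 bp at MIR142 and 29499 bp at MIRLET7B, against 18639 and 30860 bp after calcitriol. The values of the rest without such rows are not given here. The contrast of MIR142 with the rest thus holds for the lists as deposited.

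Strings were common at both loci. In the unstimulated list 9 of 10 peaks at MIR142 and 20 of 26 at MIRLET7B were in strings, and 25.8% of the peaks elsewhere. Without the out-of-order rows these counts were 2 of 5 and 14 of 22. The share elsewhere without such rows is not given here. In the calcitriol list the counts were 6 of 8 and 18 of 22, and 19.7% elsewhere. The string of 11 was the longest of the calcitriol list by number of peaks. In the unstimulated list as deposited, the string of 7 at MIR142 was second to a string of 8 on chromosome 6.

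**Figure D4:**
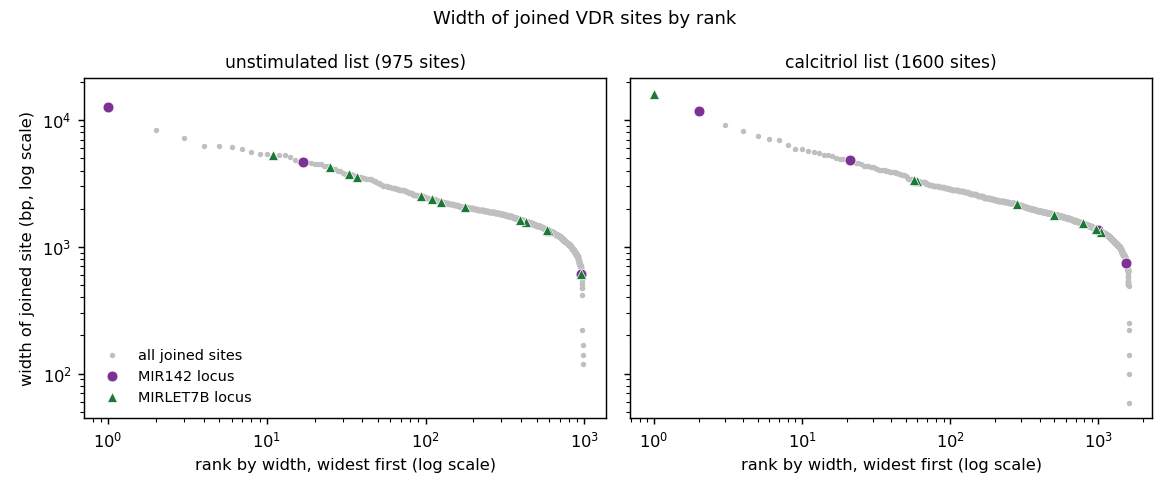
Width of every joined site against its rank in its own list, both on log scales, with 975 unstimulated sites on the left and 1600 calcitriol sites on the right. Coloured points are the sites of the MIR142 and MIRLET7B loci: the widest unstimulated site (12630 bp, MIR142) and the 2 widest calcitriol sites (16100 bp, MIRLET7B, and 11690 bp, MIR142) stand above the grey points, and the other sites of the loci lie along the whole range.

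Joined sites of 10 kb or more occurred at these loci and nowhere else in either list: 1 of 975 unstimulated sites (12630 bp, MIR142) and 2 of 1600 calcitriol sites (16100 bp, MIRLET7B, and 11690 bp, MIR142). Without the out-of-order rows the unstimulated list had 0 such sites. The broadest MIRLET7B domain also held 11 unstimulated peaks, which covered 15129 bp. It does not count as an unstimulated site of this width because gaps of 111, 890, 50 and 90 bp exceed the joining limit of 10 bp. The next widest in the lists as deposited lay on chromosome 6, with 8370 bp at 68591351 to 68599721 in unstimulated cells and 9200 bp at 68590591 to 68599791 after calcitriol. As deposited, the peaks of the MIRLET7B locus were not wide. Their median was 1250 bp in the unstimulated and 1485 bp in the calcitriol list, where the rest of each list had 1340 and 1430 bp. At the MIR142 locus the medians were 1785 and 1059.5 bp, and the calcitriol peaks there ranged from 660 to 8600 bp.

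Both loci were dense for their size, as follows from how they were chosen, and the MIRLET7B locus stood alone on its part of the chromosome. The tiles set beside them are a fixed grid that can divide a cluster, while the windows were chosen with their peaks known. The ranking thus favours the loci and is a description only. Among other 160 kb tiles holding at least 1 peak, the fullest had 18 unstimulated peaks (of 720 tiles) and 20 calcitriol peaks (of 1221 tiles), below the 26 and 22 of the MIRLET7B locus. The longest length covered in another such tile was 20.1 and 25.8 kb. At the MIR142 locus, 5 of 759 other tiles of 100 kb had as many unstimulated peaks and 10 of 1298 as many calcitriol peaks. As much length was covered in 3 of these tiles in the unstimulated list and in 2 in the calcitriol list.

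The nearest peaks beyond the MIRLET7B window lay 849.8 kb before the first and 3843 kb after the last unstimulated peak of the locus. In the calcitriol list these distances, measured in the same way, were 823.9 and 3409 kb. The nearest peaks beyond the MIR142 window lay 164.8 kb after its last unstimulated peak and 185.8 kb after its last calcitriol peak. On the other side they lay 10360 kb before its first unstimulated peak and 412.5 kb before its first calcitriol peak. No peak was cut by a window edge.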

How the data were processed

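VDR ChIP-seq peak lists of 2 libraries of THP-1 cells were used, 1 per condition. Chromatin was cross-linked and sonicated and 5 immunoprecipitations were pooled per library, per the labels' protocols. Per the submitters' processing notes, Bowtie was the aligner and hg19 the build. The program that called the peaks, its cutoff, any filter and the role of the IgG control were not given in the sources used here. Any cutoff tied to depth would change the number, width and division of peaks. The deposited values are the start and end positions of each peak in bp, with no score or count per peak, so depth and precision are unknown.

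Peaks overlapping either window were taken. Peaks 10 bp apart were joined, overlapping sites of both lists merged into domains, and sharing required 1 bp. Rows after the first break in position order of their chromosome were marked. Planned intervals for ratios of counts are not reported, since the loci were chosen by these counts. The named genes were the 4 members, other microRNAs of the loci, the genes next to the hosts and the let-7 family, and every peak is accounted for. RefSeq (GRCh38.p14) gave names, gene order and sequences only. Positions relative to genes and motifs in peaks were planned and not run, as they need hg19. The loci and lists were chosen with earlier results of these data known. The functions were tested on simulated lists. Python 3.11.15, numpy 2.4.6, pandas 2.3.3, scipy 1.17.1 and matplotlib 3.10.9 were used.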

Additional observations from a re-analysis of the deposited data

How the results depend on the processing

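Replicates could not be left out in turn. No paired analysis was possible because either list rests on a single library. Of 56 alternative values, 34 stayed close to the reported value. Close meant within 1.5 times for counts and widest sites, inside the exact 95% interval for percentages, and identical for covered lengths and median widths. Some of the 34 could not have moved, so the tally does not measure robustness. The calcitriol list has 0 out-of-order rows, so leaving such rows out could not change its own counts, lengths or widths. Windows 50 kb wider held no further peak, so all of their values were the same. Joining peaks 10 bp apart, by construction, lowered the counts at MIR142 from 10 to 3 (unstimulated) and from 8 to 4 (calcitriol) and at MIRLET7B from 26 to 13 and from 22 to 8. It raised the median widths to 4650 and 3119.5 bp at MIR142 and 2260 and 1980 bp at MIRLET7B, and brought the shared unstimulated sites at MIRLET7B to 100% from 88.5%. At MIR142 it moved the shared percentage the other way, from 90.0 to 66.7 (unstimulated) and from 75 to 50 (calcitriol). Without out-of-order rows, unstimulated peaks at MIR142 numbered 5 covering 7290 bp, with 2 in strings and a widest site of 3310 bp, and those at MIRLET7B covered 29499 bp. With a reciprocal overlap of at least 50%, the shared percentages were 20.0 (unstimulated) and 25.0 (calcitriol) at MIR142 and 50 and 59.1 at MIRLET7B. With centres within 100 bp they were 0.0, 0.0, 15.4 and 18.2. These rules compare single peaks, so a stretch that the lists divide at different places can fail them. At MIRLET7B domains 6, 7 and 8 the covered stretch itself also differed. There 44.2%, 22.8% and 35.8% of the unstimulated length was common to both lists. What lowered the percentages was not tested. Whole-list shares under these rules, or after joining, are not given here. These percentages can therefore not be set beside the rest of the series or beside the shares at 1 bp. Joining as a test of sharing and 2 of the results without out-of-order rows (peaks in strings and widest site) were added after seeing the data. Alternatives on places relative to genes and on motifs were not run.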
